A study of Mus musculus with 36 samples.

Results

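In mouse brain without FMRP, footprints of some mRNAs took a larger share of the library in the pellet of a sucrose gradient and those of others in fraction 5/6. The data are 6 libraries of ribosome-protected fragments (RPFs) of the 36 libraries in the series, chosen by label: 3 FMR1 KO pellet libraries and 3 FMR1 KO fraction 5/6 libraries, all prepared with the standard nuclease treatment in 10 mM MgCl2. A preparation used 10 brains of mice at postnatal day 5, so that animals were pooled within it, and the brains were flash frozen. FMR1 KO mice lack the FMRP protein, and all 6 libraries carry that knockout, so the comparison is between fractions and not between genotypes. Ribosomes of the pellet were resuspended, while those of fraction 5/6 were first concentrated over a sucrose pad. Both were then digested with RNase I, and fragments of footprint size were cut from a gel and sequenced. The replicates of a group carry different linkers. Per the study's methods, the replicates of a condition were pooled before reverse transcription, removal of ribosomal RNA and PCR. Their reads were separated by barcode afterward. Pool and fraction thus differ together, and the spread between replicates leaves out these shared steps. Nothing in the labels says that a pellet library and a fraction 5/6 library with the same number came from the same gradient.

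In a ribosome footprint library, each read marks a place where a ribosome sat, so the counts of a gene follow both the amount of its mRNA and the number of ribosomes on it. A sucrose gradient sorts particles by how fast they sediment: single ribosomes stay near the top, heavier polysomes move down, and the densest clusters reach the pellet. In young brain the pellet is known to hold compact ribosome clusters that resemble neuronal RNA granules, in which ribosomes are stalled during elongation. An mRNA with a long coding sequence has room for more ribosomes than a short one. FMRP is an RNA-binding protein that travels with such ribosomes and is found on many long neuronal mRNAs.

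Raw counts of protein-coding genes were used, and the gene Cdk8 was dropped first, since it alone took 36.7% to 63.4% of the counts of each library. The remaining protein-coding counts were 4279131 to 15408451 per library, with the least in fraction 5/6 replicate 3. The 10 genes with most counts took 14.5% to 30.3% of them. Of 16567 genes, 13326 had enough counts to be tested, and 13254 of those have an annotated coding sequence. Fold changes are given as log2 of pellet over fraction 5/6 ± SE, and levels as CPM, the usual scaling of counts to a common library size, after adjustment by TMM, a factor that lines up the bulk of genes between libraries. Adjusted p-values come from edgeR (quasi-likelihood) and were corrected by Benjamini-Hochberg across the 13326 genes, and a gene is called changed when that value is under 0.05. Fmr1 itself was at 4.41 to 6.95 CPM in the 6 FMR1 KO libraries when all 12 standard nuclease libraries were scaled together. In the WT libraries it was at 62.0 to 96.1 CPM, except in the library labelled WT fraction 5/6 replicate 3, where it was at 2.98 CPM. Genes were named by fixed rules (the extremes of fold, the most read giant and short mRNAs, the 2 most read of each list), and any other named gene was chosen after its values were seen. Within the knockout, Fmr1 did not pass the test (log2 fold change -0.28 ± 0.20, adjusted p = 0.376). The neuron markers were read well in both fractions: their 13 tested genes summed to 11345 to 11804 CPM in the pellet and 11042 to 12130 CPM in fraction 5/6.

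Footprints are not spread evenly along an mRNA, and the deposited peak files mark where they pile up. To show the kind of sequence behind the counts, 30-nt windows in the reading frame are printed at a peak found in all 3 pellet libraries on giant mRNAs and at one found in all 3 fraction 5/6 libraries on short mRNAs. They were chosen after their values were seen. Sequence and coordinates are from GRCm38 with the GENCODE M21 gene models, every window lies in a coding exon, codons for aspartate and glutamate are in capitals, and the rest is in lower case. These capitals describe the windows and were not tested. Every printed window holds such a codon, but not every window looked at does. Those of Sub1, Hint1 and Rpl23 in fraction 5/6 hold none and are among the windows not printed.
Ubr4 (pellet): ctggtgGAGcggttcaagccatactgcagc
Mycbp2 (pellet): gctttaatgcacaagtggccattaaaaGAA
Cplx2 (fraction 5/6): ctgccagggccgctgcagGACatgttcaag
Bex2 (fraction 5/6): agatggGACctgatgcatagggttgggGAG
Gng3 (fraction 5/6): gcaGACctgatgacatactgtGATgcccac
Cox7b (fraction 5/6): cctagtttccatGACaaatatgggaatgct

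The Ubr4 window starts at codon 4631 of this ubiquitin ligase (chr4:139472625-139472654, plus strand, exon 95), and its peak heights in the 3 pellet libraries were 17, 8 and 14. The Mycbp2 window starts at codon 349 (chr14:103297294-103297323, minus strand, exon 6), with heights of 18, 3 and 12. Mycbp2 is among the giants called higher in the pellet, while Ubr4 did not pass the test. The window in Cplx2, which encodes a small regulator of synaptic vesicle fusion, starts at codon 124 (chr13:54379674-54379703, plus strand, exon 4) and had heights of 191, 295 and 79 in fraction 5/6. That of Bex2 starts at codon 67 (chrX:136066975-136067004, minus strand, exon 3), with heights of 304, 337 and 142. The window in Gng3, a G protein gamma subunit of neurons, starts at codon 39 (chr19:8838227-8838256, minus strand, exon 3), with heights of 260, 291 and 142. That of Cox7b, a small subunit of cytochrome c oxidase, starts at codon 31 (chrX:106019629-106019658, plus strand, exon 2), with heights of 52, 49 and 46. Peak heights are not scaled between libraries.

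The pellet and fraction 5/6 of FMR1 KO brain held ribosomes on mRNAs of different coding length. Of the 13326 genes tested, 1342 were higher in the pellet (10.1%) and 186 were lower (1.4%). The genes called higher had a median coding sequence of 3708 nt and those called lower one of 876 nt, against 1458 nt over all genes tested. Coding sequences of 3600 nt or more made up 53.1% of the genes called higher and 1.08% of those called lower, where they are 10.5% of all genes tested. Coding sequences under 900 nt made up 0.821% of the genes called higher and 53.2% of those called lower, against 24.7% of all. The 3 pellet libraries did not overlap the 3 fraction 5/6 libraries for 1341 of the 1342 genes called higher and for all 186 called lower, while over all genes tested 21.7% lay wholly above and 14.5% wholly below. The exception is Igsf11, at 1126, 2360 and 0.948 CPM in the pellet and 0.622 to 2.12 CPM in fraction 5/6. The number called depends on the scaling and on single libraries. With library size alone in place of TMM it was 141 higher and 22 lower. It fell to 535 higher and 10 lower without pellet replicate 1, to 695 and 14 without pellet replicate 3, to 607 and 9 without fraction 5/6 replicate 1, and to 614 and 46 without fraction 5/6 replicate 3, and to 34 and 5 without replicate 3 of both fractions. Simulated counts with known changes in 200 of 13326 genes were based on the means and variation of the same libraries. In them the test recovered 78% of 4-fold and 10% of 2-fold changes. More genes than that were called in the data, which makes the adjusted threshold less strict there. These shares therefore need not hold for the data, and small changes in single genes may still be missed.

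Genes were sorted into 7 classes by the longest annotated coding sequence, and the median fold change rose from class to class. Below 450 nt (short) the median was -0.41 over 842 genes, of which 0 were called higher and 25 lower. From 450 to under 900 nt it was -0.26 over 2436 genes, with 11 higher and 74 lower. From 900 to under 1800 nt it was -0.06 over 4963 genes, with 83 higher and 75 lower. The sign turned above that length. From 1800 to under 3600 nt the median was 0.29 over 3624 genes, with 535 higher and 10 lower, and from 3600 to under 7200 nt it was 0.82 over 1137 genes, with 540 higher and 1 lower. From 7200 to under 12000 nt (long) it was 1.45 over 187 genes, with 134 higher and 0 lower. At 12000 nt and over (giant) it was 1.57 over 65 genes, with 37 higher and 1 lower. Over all genes tested the median was 0.01. Where the sign turns depends on the scaling: with library size alone in place of TMM the median of all genes moved to -0.33 and that from 1800 to under 3600 nt to -0.05, while the order of the classes was the same. The medians of tubulins and actins (0.04), small secreted proteins (0.13) and zinc finger genes (0.01), given later, are also below 0 under that scaling (-0.29, -0.21 and -0.30). Across the 13254 genes, the Spearman correlation of fold change with coding length was 0.58. This is a description across genes of the same 6 libraries, and genes are not independent replicates.

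**Figure D1:**
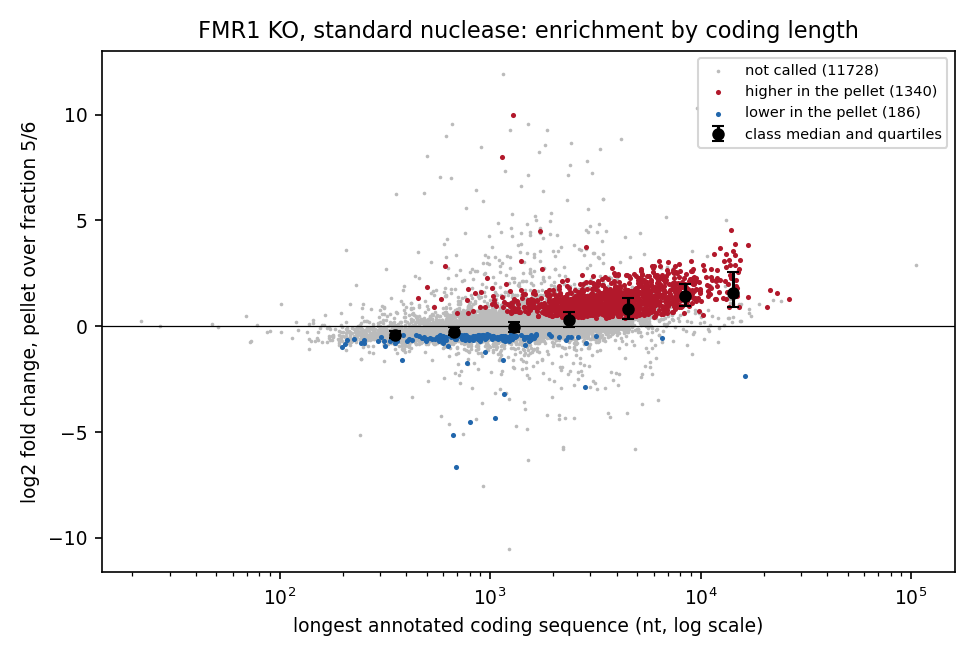
Log2 fold change of pellet over fraction 5/6 in FMR1 KO (y axis) against the longest annotated coding sequence in nt (x axis, log scale) for 13254 genes, colored by call, with the median and quartiles of each of 7 length classes in black at the class's median length. The black points rise from -0.41 in the shortest class to 1.57 in the longest, and most points with the largest folds in either direction lie between these extremes of length.

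The pattern was present in each library for the long classes and less even for the short ones. Each gene's log2 CPM was set against its mean over the 6 libraries, and the median of that difference was taken per class and library. For giant mRNAs it was 0.91, 0.94 and 0.66 in pellet replicates 1, 2 and 3 and -0.82, -0.76 and -1.12 in fraction 5/6. For the class from 7200 to under 12000 nt it was 0.85, 0.58 and 0.73 in the pellet and -0.70, -0.68 and -0.80 in fraction 5/6. Both classes were far apart between the fractions, with no overlap of libraries. For short mRNAs it was -0.24, -0.05 and -0.27 in the pellet and 0.26, -0.06 and 0.38 in fraction 5/6, so that replicate 2 of each fraction stood at nearly the same place and the groups overlapped.

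**Figure D2:**
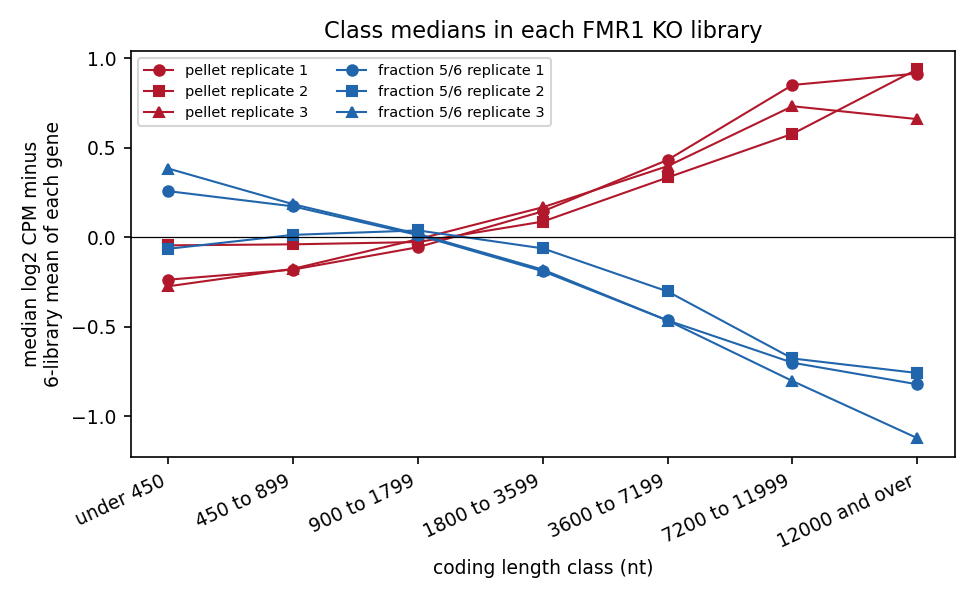
Median, per coding length class (x axis, nt), of log2 CPM minus the 6-library mean of each gene (y axis) in each FMR1 KO library, with pellet libraries in red and fraction 5/6 libraries in blue. The red lines lie below the blue ones in both classes from 450 to under 1800 nt and above them in every class from 1800 nt upward, while at the short end pellet replicate 2 (-0.05) and fraction 5/6 replicate 2 (-0.06) meet.

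The fold change went with coding length more closely than with the length of the whole mRNA. Over 13156 genes with a coding sequence on the transcript listed in the count table, the Spearman correlation was 0.57 with the coding length, 0.43 with the transcript length and 0.07 with the untranslated length. Within 1 coding class the untranslated length made little difference. In the class from 1800 to under 3600 nt, the genes with the shortest, middle and longest untranslated parts (medians of 369, 1113 and 2670 nt) had median fold changes of 0.25, 0.30 and 0.31. In the class from 900 to under 1800 nt the same groups stood at -0.07, -0.06 and -0.03. The classes were also compared at like levels of reads: among the least read quartile of genes the medians were -0.39 for short and 1.20 for the 7200 to under 12000 nt class, and among the most read quartile they were -0.37 and 1.51. For giant mRNAs the median was 0.53 over 18 genes of the least read quartile and 2.85 over 20 genes of the most read, so that giants stood below the class before them in the first and above it in the second.

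Giant mRNAs had the highest class median, though a larger share of the class from 7200 to under 12000 nt was called higher (71.7% against 56.9%) and lay wholly above (84.5% against 69.2%). The table holds 70 genes with a coding sequence of 12000 nt or more, of which 65 were tested. Of these, 62 had a positive fold change, 37 were called higher and Zan alone was called lower. All 37 giants at 10 CPM or more had a positive fold change and 27 of them were called, and of the 28 below 10 CPM 25 were positive and 10 were called higher. Dync1h1, the heavy chain of the motor that carries cargo toward the cell body, was at 1714, 1097 and 1570 CPM in the pellet and 77.9, 58.9 and 48.7 CPM in fraction 5/6. It had the highest fold of the giants called (4.56 ± 0.32, adjusted p = 0.00102), which is 23.6-fold. Mdn1, a giant ATPase that remodels the large ribosomal subunit while it is being built, was at 157, 107 and 129 CPM against 8.03, 9.28 and 10.1 CPM (3.84 ± 0.19, adjusted p = 0.000889). Neither gene has a pellet library near its fraction 5/6 libraries.

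Other giants rose by less. Syne1 and Syne2 encode nesprins, which tie the nucleus to the cytoskeleton, and had fold changes of 1.30 ± 0.17 (adjusted p = 0.00514) and 0.92 ± 0.17 (adjusted p = 0.017). Dst, which links actin and microtubules, was at 1.57 ± 0.35 (adjusted p = 0.0375). Its relative Macf1 was at 219, 120 and 111 CPM in the pellet and 58.6, 47.2 and 82.6 CPM in fraction 5/6, and did not pass (1.26 ± 0.33, adjusted p = 0.0546). Ryr2, a calcium release channel, rose by 1.79 ± 0.10 (adjusted p = 0.000897), Kmt2c, a histone methyltransferase, by 1.90 ± 0.19 (adjusted p = 0.00239) and Kmt2d by 1.41 ± 0.15 (adjusted p = 0.00268). Ttn, the muscle protein titin and the longest coding sequence of the table at 105642 nt, is hardly read in brain. It was at 2.43, 22.9 and 2.61 CPM in the pellet against 0.89 to 1.43 CPM in fraction 5/6 and did not pass (2.90 ± 1.02, adjusted p = 0.116). Zan, known from sperm, was at 0.40 to 1.74 CPM in the pellet and 3.54 to 5.91 CPM in fraction 5/6 (-2.34 ± 0.53, adjusted p = 0.0377). These genes, unlike the 8 giants with most counts, were named after their values were seen.

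Of the 8 giants with most counts, 6 rose and 2 did not pass, and the 2 are the most read of all. Plec, which encodes the linker protein plectin, was at 7241, 10205 and 4502 CPM in the pellet and 9296, 9106 and 427 CPM in fraction 5/6 (0.22 ± 1.00, adjusted p = 0.908). Ubr4 was at 1917, 2379 and 1227 CPM in the pellet and 2370, 185 and 68.0 CPM in fraction 5/6 (log2 fold change 1.07, adjusted p = 0.579). In both, the fraction 5/6 libraries lay far apart, with replicate 1 the highest and replicate 3 the lowest. RNA-seq of FMR1 KO homogenate had Plec at 67.1 CPM and Ubr4 at 367 CPM, so that for Plec the footprint share far exceeded the RNA share. With the low nuclease treatment Ubr4 was called higher in the pellet (2.46, adjusted p = 0.0041), as was Plec (0.89, adjusted p = 0.0093).

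**Figure D3:**
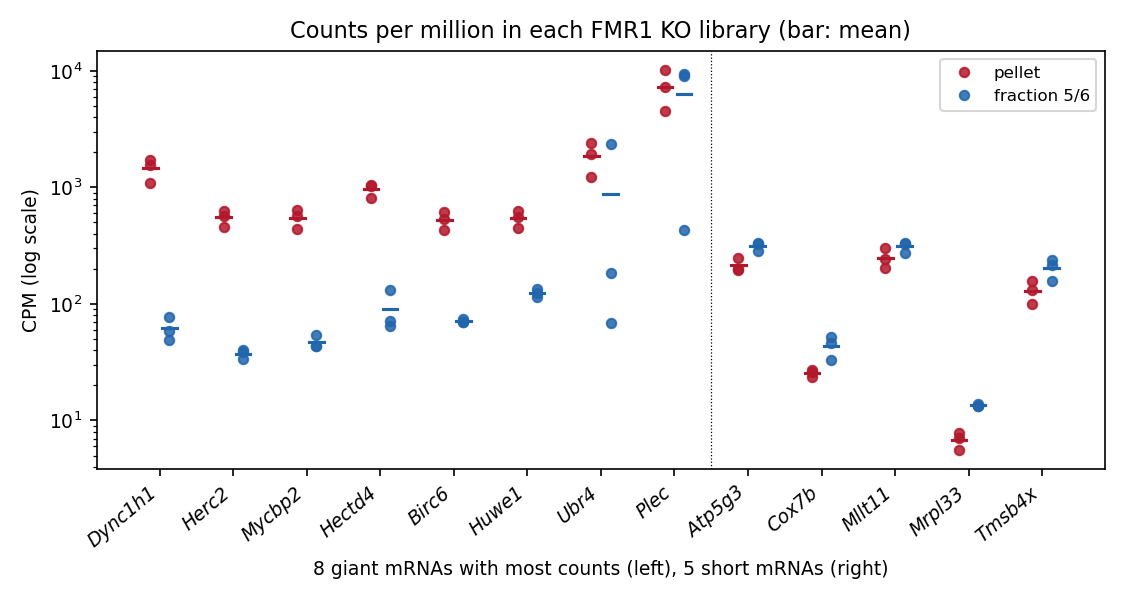
CPM on a log scale (y axis) in each FMR1 KO library for the 8 giant mRNAs with most counts and 5 short mRNAs (x axis), with pellet libraries in red, fraction 5/6 libraries in blue and group means as bars. The libraries of the 2 fractions do not overlap for 6 of the giants and do overlap for Ubr4 and Plec. Those of the short mRNAs lie closer together, without overlap for Mrpl33, Cox7b and Atp5g3 and with overlap for Mllt11 and Tmsb4x.

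Most of the giant ubiquitin ligases rose. Here giant is the name of the list, whose median coding sequence was 13257 nt and which also holds members under 12000 nt. These enzymes attach ubiquitin to proteins and are built as very long single chains. Of 13 tested, 12 were called higher, 0 lower, and the exception was Ubr4, beside 10.1% higher and 1.4% lower over all genes tested. Their median fold change was 2.45, and 12 of 13 lay above the median of their own length class, by 1.37 in the median. Giant mRNAs of the most read quartile had a median of 2.85, and the members were not set against genes of like level. Hectd4 was at 1040, 812 and 1032 CPM in the pellet and 133, 71.5 and 65.2 CPM in fraction 5/6 (3.42 ± 0.35, adjusted p = 0.0024). Herc2 was at 627, 461 and 566 CPM in the pellet and 40.2, 38.7 and 33.6 CPM in fraction 5/6 (3.88 ± 0.20, adjusted p = 0.000889). For both, the lowest pellet library was far above the highest fraction 5/6 library. Mycbp2, which shapes axons and synapses, rose by 3.54 ± 0.22 (adjusted p = 0.000897). Herc1 rose by 3.37 ± 0.20 (adjusted p = 0.000897), Birc6, an inhibitor of cell death, by 2.90 ± 0.19 (adjusted p = 0.000897) and Huwe1 by 2.13 ± 0.19 (adjusted p = 0.00186).

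Kinases of the PIKK family, which sense DNA damage or nutrients, were listed together with Htt, the huntingtin gene. All 7 tested were called higher, beside 10.1% of all genes, with a median of 2.58, which is 1.13 above their own length classes. Trrap, a kinase-like scaffold of histone acetyltransferases, was at 434, 298 and 409 CPM in the pellet and 35.8, 34.1 and 36.1 CPM in fraction 5/6 (3.43 ± 0.20, adjusted p = 0.000897). Mtor, which couples nutrients to growth, was at 249, 182 and 245 CPM against 32.9, 47.1 and 33.0 CPM (2.58 ± 0.22, adjusted p = 0.00163). The fraction 5/6 libraries of both genes lay close together and far below the pellet. Prkdc, the DNA-dependent protein kinase, was at 3.69 ± 0.27 (adjusted p = 0.00108) and Htt at 2.32 ± 0.15 (adjusted p = 0.000897), and the lowest member was Smg1, a kinase of nonsense-mediated decay (1.51 ± 0.16, adjusted p = 0.00291).

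Proteins of the VPS13 family, which move lipid between membranes, and BEACH proteins, which act in vesicle traffic, formed the next list. Beside it, 10.1% of all genes were called higher and 1.4% lower. Of 12 tested, 8 were called higher and 0 lower, with a median of 2.16, or 0.71 above their own length classes, and 7 of the 12 lay above. Nbea, the neuronal BEACH protein neurobeachin, was at 940, 680 and 806 CPM in the pellet and 178, 185 and 188 CPM in fraction 5/6 (2.14 ± 0.20, adjusted p = 0.002). Wdfy3, an adaptor of selective autophagy, rose by 2.32 ± 0.16 (adjusted p = 0.000897), Vps13d by 2.80 ± 0.18 (adjusted p = 0.000897) and Lyst by 2.18 ± 0.17 (adjusted p = 0.00121).

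Large structural proteins were listed by family, beside 10.1% of all genes called higher and 1.4% lower. Of 15 spectrins, ankyrins and plakins, 9 were called higher and 0 lower, with a median of 1.20, which is 0.26 below their own length classes, and only 3 members lay above. Sptan1, the alpha spectrin of the cell cortex, was at 2180, 1488 and 1633 CPM in the pellet and 651, 367 and 538 CPM in fraction 5/6 (1.77 ± 0.31, adjusted p = 0.0162). Ank2, an ankyrin of axons, rose by 1.31 ± 0.22 (adjusted p = 0.013). The dynein heavy chains, most of which drive cilia and are hardly read in brain, had 9 of 14 called higher and 0 lower, with a median of 1.61, or 0.04 above their classes. Dnah7b, the most read after Dync1h1, was at 96.9, 951 and 108 CPM in the pellet and 85.2, 294 and 4.36 CPM in fraction 5/6 and did not pass (1.59 ± 1.42, adjusted p = 0.486). Of 26 large chromatin proteins, 23 were called higher and 0 lower, with a median of 1.21, or 0.11 above their classes. Smarca4, an ATPase of chromatin remodelling, rose by 1.05 ± 0.20 (adjusted p = 0.0203). Chd5, a neuronal remodeller, was at 253 to 278 CPM in the pellet and at 1322, 174 and 136 CPM in fraction 5/6 (-1.04 ± 0.85, adjusted p = 0.444).

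Proteins of the cell surface and the extracellular space were also listed, beside 10.1% of all genes called higher and 1.4% lower. Of 32 extracellular matrix genes, 17 were called higher and 0 lower, with a median of 1.54, which is 0.63 above their own length classes. Reln, the secreted protein that guides neuron migration, was at 93.5, 54.1 and 62.9 CPM in the pellet and 11.8, 11.8 and 9.33 CPM in fraction 5/6 (2.67 ± 0.23, adjusted p = 0.00172). Ncan, a brain proteoglycan, rose by 1.51 ± 0.19 (adjusted p = 0.00485) and Tnc, a matrix protein of the developing brain, by 3.09 ± 0.18 (adjusted p = 0.000897). Of 27 large adhesion receptors, 18 were called higher and 0 lower, with a median of 1.44, or 0.33 above their classes. Ptprz1, a receptor phosphatase of glia, rose by 1.39 ± 0.26 (adjusted p = 0.019), while Ptprd was at 29.8 to 34.6 CPM in the pellet and 118, 214 and 23.2 CPM in fraction 5/6 (-1.91 ± 0.68, adjusted p = 0.12). Lrp1, a large endocytic receptor, was at 3.15 ± 0.16 (adjusted p = 0.000889). Of 24 large ion channels, 12 were called higher and 0 lower, with a median of 1.30, or 0.10 above their classes. The 2 channels with most counts, Cacna1d and Cacna1e, are calcium channel subunits and each had libraries far from the others. Cacna1e was at 28.7, 577 and 27.1 CPM in the pellet and 4.98 to 6.69 CPM in fraction 5/6 (5.14 ± 1.36, adjusted p = 0.0576), and Cacna1d at 194 to 439.6 CPM in the pellet and 4.67 to 301 CPM in fraction 5/6 (1.33 ± 1.24, adjusted p = 0.506).

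Synaptic scaffolds, microtubule proteins and actins were listed next, beside 10.1% of all genes called higher and 1.4% lower. Of 13 presynaptic scaffold and release genes, 5 were called higher and 0 lower, with a median of 0.82, or 0.01 above their classes. Bsn, the scaffold bassoon with a coding sequence of 11829 nt, rose by 2.13 ± 0.16 (adjusted p = 0.00117), and Pclo, its relative piccolo, rose as well (adjusted p = 0.00407). Erc1 rose by 0.82 ± 0.15 (adjusted p = 0.0188), and Unc13a, which primes vesicles, was at 0.83 ± 0.47 (adjusted p = 0.281). Map1b, a microtubule-associated protein of growing axons with a coding sequence of 7395 nt, was among the most read mRNAs. It was at 11917, 7413 and 10722 CPM in the pellet and 1464, 1665 and 1558 CPM in fraction 5/6 (2.68 ± 0.41, adjusted p = 0.00993). Map2, its counterpart in dendrites with 5487 nt, was at 2962, 2459 and 2316 CPM in the pellet and 2446, 2661 and 2435 CPM in fraction 5/6, with overlapping groups (0.04 ± 0.28, adjusted p = 0.947). Of all 15 microtubule-associated genes, 3 were called higher and 0 lower, with a median of -0.05, or 0.10 below their classes. Of 14 tubulins and actins 0 were called, with a median of 0.04. Per kilobase of coding sequence, the mean level of Tubb5 was 4978 CPM in the pellet and 4382 CPM in fraction 5/6. That of Actb was 4253 and 4221, and that of Dync1h1 105 and 4.44, the lowest of the 3 in either fraction. These levels are not divided by the amount of mRNA. RNA-seq of FMR1 KO homogenate had Tubb5 at 3003 CPM, Actb at 5647 CPM and Dync1h1 at 368 CPM. They thus do not give the number of ribosomes per mRNA.

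At the short end, most fold changes were negative and few passed the test. Of the 842 short mRNAs, 109 had a positive fold change, which is 12.9%, against 50.7% of all genes tested, and 221 lay wholly below fraction 5/6 in the pellet against 14 wholly above. Over all genes tested 14.5% lay wholly below. The 25 called lower are 2.97% of the class, against 1.4% of all genes. Cox7b was at 26.9, 26.3 and 23.4 CPM in the pellet and 46.1, 32.8 and 52.0 CPM in fraction 5/6 (-0.77 ± 0.18, adjusted p = 0.0409). Mrpl33, a subunit of the mitochondrial ribosome with a coding sequence of 198 nt, was at 7.75, 7.09 and 5.61 CPM against 13.3, 13.95 and 13.2 CPM (-0.98 ± 0.17, adjusted p = 0.0136). Both were lower in every pellet library than in any fraction 5/6 library. Gabarap, a ubiquitin-like protein of autophagy, fell by 0.60 ± 0.14 (adjusted p = 0.0457). Tmsb4x, which binds actin monomers, was at 132, 158 and 100.3 CPM against 214, 157 and 237 CPM and did not pass (-0.64 ± 0.23, adjusted p = 0.119). These 4 were named after their values were seen.

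The 8 short mRNAs with most counts gave 0 calls, and they fell into 2 kinds. Mllt11 and Atp5g3 had replicates close together. Mllt11 was at 243, 304 and 202 CPM in the pellet and 334, 275 and 327 CPM in fraction 5/6 (-0.32 ± 0.20, adjusted p = 0.322). Atp5g3, a subunit of the ATP synthase, was at 198, 249 and 197 CPM against 331, 282 and 329 CPM, with no overlap (-0.55 ± 0.17, adjusted p = 0.0848). The other 6 differed widely among replicates. Avpi1 was at 1128, 7052 and 927 CPM in the pellet and 3840, 2733 and 2234 CPM in fraction 5/6, where RNA-seq had it at 6.65 CPM. Limd2 was at 11.1 to 4627 CPM in the pellet and 13.5 to 2203 CPM in fraction 5/6, Gm45140 at 11.5 to 5308 and 14.8 to 36.4, Rpl22 at 231 to 2050 and 22.9 to 592, BC107364 at 8.22 to 1632 and 2.64 to 756, and Smim19 at 2.21 to 100.2 and 42.5 to 877. None of the 6 passed the test, with adjusted p from 0.114 to 0.978.

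The small housekeeping families had medians below 0, and few of their members were called. Beside them, 10.1% of all genes were called higher and 1.4% lower, and each family's share called lower was above the latter. Of 80 cytosolic ribosomal protein genes, 0 were called higher and 3 lower, with a median of -0.45, which is 0.16 below their own length classes. Rpl4, one of the longest, was at 319, 295 and 315 CPM in the pellet and 350, 421 and 426 CPM in fraction 5/6 (-0.36 ± 0.16, adjusted p = 0.19). Rpl34 fell by 0.77 ± 0.17 (adjusted p = 0.0376), and Rpl41, which has one of the shortest coding sequences at 141 nt, was at -0.70 ± 0.31 (adjusted p = 0.18). Of 78 mitochondrial ribosomal protein genes, 0 were called higher and 5 lower, with a median of -0.31. Mrpl48 was at -0.33 ± 0.18 (adjusted p = 0.259) and Dap3 at 0.25 ± 0.14 (adjusted p = 0.272). Of 78 genes of the respiratory chain and ATP synthase, 1 was called higher and 5 lower, with a median of -0.43. Atp5b was at -0.02 ± 0.23 (adjusted p = 0.975) and Atp5a1 at -0.16 ± 0.24 (adjusted p = 0.692), the longer members. Relative to their own length classes the mitochondrial ribosomal list was lower by 0.05 and the respiratory chain list by 0.08.

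The next lists stand beside the same 10.1% of all genes called higher and 1.4% lower. Of 23 small soluble proteins, among them actin and calcium binders, 0 were called higher and 1 lower, S100a10, with a median of -0.42. Fabp7, a fatty acid carrier of radial glia, was at -0.43 ± 0.23 (adjusted p = 0.266). Of 20 proteasome and small ubiquitin genes, 0 were called higher and 2 lower, with a median of -0.29. Psmc3 was at -0.23 ± 0.15 (adjusted p = 0.33) and Psmc6 at -0.33 ± 0.15 (adjusted p = 0.193). Glycolysis genes had a median of -0.02 over 16, with 1 called higher and 0 lower. The one called was Hk1, hexokinase 1, whose coding sequence of 2838 nt is long for this list (1.16 ± 0.20, adjusted p = 0.0161), while Aldoa was at -0.35 ± 0.19 (adjusted p = 0.253). Only 2 replication-dependent histone genes were tested, Hist1h4m (-1.66 ± 0.56, adjusted p = 0.106) and Hist1h2an (0.05 ± 0.38, adjusted p = 0.947).

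Some mRNAs of proteins that enter the endoplasmic reticulum (ER) were above their length class without being long. For the counts below, 10.1% of all genes tested were called higher and 1.4% lower. ER machinery genes, which translocate, glycosylate and fold such proteins, had 9 of 27 called higher and 0 lower, with a median of 0.39, or 0.37 above their own classes. Hsp90b1, the ER form of Hsp90, was at 69.1, 43.5 and 55.7 CPM in the pellet and 18.6, 29.2 and 20.4 CPM in fraction 5/6 (1.30 ± 0.23, adjusted p = 0.0167). Hspa5, the ER chaperone BiP, rose by 1.03 ± 0.23 (adjusted p = 0.0375), Stt3a, a catalytic subunit of the enzyme that adds N-glycans, by 1.89 ± 0.20 (adjusted p = 0.00283) and Calr, calreticulin, by 0.65 ± 0.16 (adjusted p = 0.0496). The 2 members with most counts, Srp68 and Srp72, belong to the cytosolic signal recognition particle and were at -0.35 ± 0.13 (adjusted p = 0.132) and -0.17 ± 0.15 (adjusted p = 0.492). Of 25 small secreted proteins, 4 were called higher and 0 lower, with a median of 0.13, which is 0.32 above their classes. Apoe was at 0.13 ± 0.21 (adjusted p = 0.711) and Pcsk1n at -0.71 ± 0.68 (adjusted p = 0.516).

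Lists of membrane proteins of middle length were also described, beside the 10.1% of all genes called higher. Of 45 clustered protocadherins, 22 were called higher and 0 lower, with a median of 0.79, and all 45 lay above their own length class, by 0.50 in the median. Their genes share constant exons, so that the counts of different members need not be independent, and Pcdhga1 (0.91 ± 0.16, adjusted p = 0.0147) and Pcdhga2 (0.90 ± 0.17, adjusted p = 0.0196) are nearly the same. Of 17 cadherins, 2 were called higher and 0 lower, with a median of 0.62, or 0.21 above their classes, and Cdh13 (1.13 ± 0.43, adjusted p = 0.139) and Cdh4 (0.50 ± 0.79, adjusted p = 0.709) did not pass. The solute carriers, membrane transporters taken by symbol after their values were seen, had 31 of 221 called higher and 1 lower, with a median of 0.44, or 0.40 above their classes. Slc1a3, a glutamate transporter of glia, was at 73.8, 75.9 and 105.9 CPM in the pellet and 23.8, 38.5 and 26.9 CPM in fraction 5/6 (1.52 ± 0.23, adjusted p = 0.00935). Slc1a2 rose by 0.94 ± 0.20 (adjusted p = 0.0305), Slc38a1 by 0.73 ± 0.15 (adjusted p = 0.0263) and Syp, the vesicle membrane protein synaptophysin, by 0.92 ± 0.14 (adjusted p = 0.0101). Zinc finger genes of the Zfp series, taken in the same way, have a longer median coding sequence (1752 against 1575 nt). They had 24 of 338 called higher and 5 lower, with a median of 0.01, or 0.11 below their classes. Zfp711 fell by 0.50 ± 0.11 (adjusted p = 0.032) and Zfp770 by 0.53 ± 0.12 (adjusted p = 0.0343), as did Npm1, the nucleolar protein nucleophosmin, by 0.56 ± 0.11 (adjusted p = 0.0215).

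**Figure D4:**
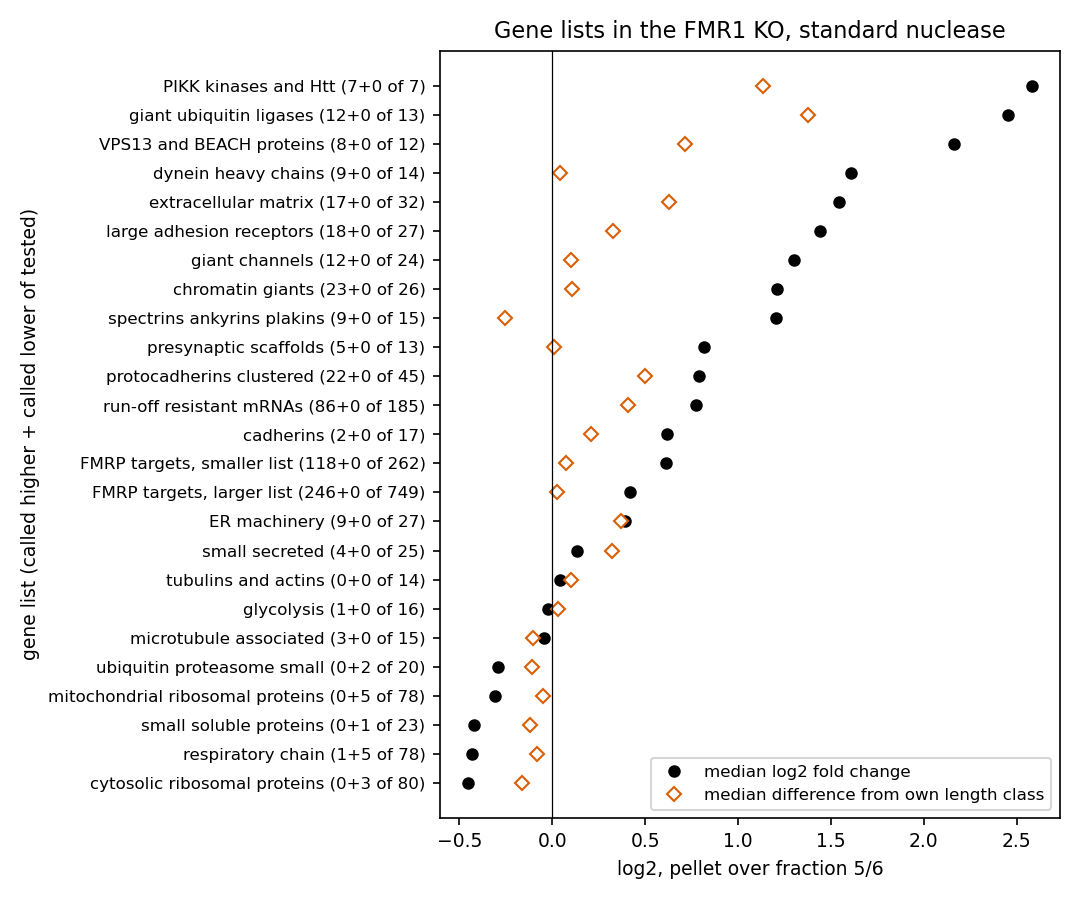
Median log2 fold change of pellet over fraction 5/6 in FMR1 KO (black circles) and median difference of the members from the median of their own coding length class (orange diamonds) for 25 gene lists (y axis, with members called higher and lower of those tested). Giant ubiquitin ligases (2.45 and 1.37) and PIKK kinases with Htt (2.58 and 1.13) lie far to the right on both measures, while both FMRP target lists have diamonds near 0 (0.08 and 0.03).

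The study follows lists of mRNAs from earlier work on stalled ribosomes and on FMRP. They are set here beside 10.1% of all genes called higher and 1.4% lower. The mRNAs whose ribosomes resist run-off had 86 of 185 called higher and 0 lower, with a median of 0.78, and 137 of them lay above their own length class, by 0.41 in the median. Tubb5, which with Map1b has most counts among them, was at 7250, 5860 and 6827 CPM in the pellet and 5072, 6544 and 5937 CPM in fraction 5/6 (0.18 ± 0.38, adjusted p = 0.78). Of the smaller list of FMRP targets, 118 of 262 were called higher and 0 lower, with a median of 0.61, and of the larger list 246 of 749 and 0, with a median of 0.42. The coding sequences of these targets are long, with medians of 4520 and 3234 nt. Against their own length classes the medians were 0.08 and 0.03. Dpysl2, a target with a shorter coding sequence that acts in axon growth, was at 4626, 3661 and 4749 CPM in the pellet and 2008, 2663 and 2313 CPM in fraction 5/6, with no overlap (0.90 ± 0.32, adjusted p = 0.121).

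Length classes show where the lists differ. From 1800 to under 3600 nt the run-off resistant mRNAs had a median of 0.79 over 81 genes, with 38 called higher (46.9%), against 0.28 and 497 of the other 3543 genes of that class. The 69 targets of the smaller FMRP list had 0.21 and 17.4%, against 0.29 and 14.7%, and the 307 of the larger list had 0.31 and 16.3%, against 0.29 and 14.6%. At 12000 nt and over, the 18 targets of the smaller list had a median of 2.42, with 15 called higher, against 1.29 and 22 for the other 47 giants. Of the 17 of the larger list 14 were called higher, against 23 of the other 48. Split by both properties, the 120 run-off resistant mRNAs that are FMRP targets lay 0.36 above their length classes and the 65 that are not lay 0.57 above, with median levels of 249 and 46.1 CPM. The 670 FMRP targets that are not run-off resistant lay 0.01 above. These are counts and medians, and no test of the lists was made.

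The largest folds of single genes were found in giant and in shorter mRNAs. Among genes called changed with at least 10 CPM and no overlap of libraries, the 6 highest were Cers2, Dync1h1, Slc9a8, Herc2, Mdn1 and Mdga1, and the 6 lowest were Rybp, Cyb561d2, Elovl6, Sae1, Irak1bp1 and Etnk2. Cers2, which makes long ceramides, was at 378, 469 and 225 CPM in the pellet and 0.669, 1.28 and 2.33 CPM in fraction 5/6 (7.99 ± 0.58, adjusted p = 0.00107). Rybp, a Polycomb protein, was at 5.53, 6.98 and 6.24 CPM in the pellet and 1136, 747 and 7.31 CPM in fraction 5/6 (-6.66 ± 1.59, adjusted p = 0.0442). Sae1, a subunit of the SUMO-activating enzyme, was at 212, 220 and 87.1 CPM against 5042, 320.5 and 4971 CPM (-4.32 ± 1.04, adjusted p = 0.0455). In Slc9a8, Mdga1, Rybp, Cyb561d2, Elovl6 and Sae1, 1 library lay far from the others of its group.

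These 12 genes had smaller folds with the low nuclease treatment, the giants included. There Cers2 was at 0.39 (adjusted p = 0.55), Slc9a8 at 1.42 (0.45), Mdga1 at 0.19 (0.71), Rybp at -0.66 (0.44), Cyb561d2 at -0.28 (0.67), Elovl6 at 0.24 (0.66), Sae1 at -1.04 (0.63), Irak1bp1 at -0.69 (0.038) and Etnk2 at -0.46 (0.11). The 3 giants were called there too: Dync1h1 was at 2.55 (adjusted p = 0.0041), Herc2 at 2.63 (0.0041) and Mdn1 at 2.24 (0.0065). In RNA-seq of FMR1 KO homogenate, Cers2 was at 9.71 CPM, Slc9a8 at 7.27 and Cyb561d2 at 9.96, below their higher footprint levels.

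Shares of all protein-coding counts give the size of these classes in each library. The class from 7200 to under 12000 nt took 3.78%, 4.78% and 3.62% of the counts in the pellet and 0.908%, 1.00% and 1.41% in fraction 5/6, which is 4.06% ± 0.63 (SD, n = 3) against 1.11% ± 0.27 (SD, n = 3). Giant mRNAs took 1.70%, 1.35% and 1.34% against 1.20%, 1.07% and 0.229%. In both classes every pellet library was above every fraction 5/6 library, and the exact two-sided permutation test gave p = 0.1, the smallest that 3 against 3 libraries allow. Plec is among the 20 genes with most counts, and with these left out the giant share was 1.10% ± 0.24 (SD, n = 3) in the pellet and 0.298% ± 0.181 (SD, n = 3) in fraction 5/6. The class from 3600 to under 7200 nt, in spite of its 540 genes called higher, took 12.8% ± 1.1 (SD, n = 3) in the pellet and 13.7% ± 4.8 (SD, n = 3) in fraction 5/6, which overlap (difference -0.95 percentage points, exact permutation p = 0.9). Without those 20 genes its difference was 4.10 points (exact permutation p = 0.1). Short mRNAs took 2.28%, 2.88% and 1.56% in the pellet and 2.32%, 2.19% and 3.42% in fraction 5/6, which overlap (difference -0.41 percentage points, exact permutation p = 0.5). Without pellet replicate 3 this difference was -0.06 and without fraction 5/6 replicate 3 it was -0.02, and the giant difference of 0.63 points fell to 0.33 without fraction 5/6 replicate 3.

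The deposited peaks gave a second readout of the same libraries. Giant mRNAs held 382 peaks on 13 mRNAs, 137 on 8 and 211 on 11 in the pellet libraries, and 11 on 2, 16 on 2 and 1 on 1 in the fraction 5/6 libraries. As a share of all peaks this is 0.928% ± 0.247 (SD, n = 3) against 0.0461% ± 0.0323 (SD, n = 3), where the fraction 5/6 value rests on the few peaks just given. The class from 7200 to under 12000 nt held 3.17% ± 0.72 (SD, n = 3) against 0.811% ± 0.362 (SD, n = 3). Short mRNAs held 3.18%, 3.95% and 3.46% of the peaks in the pellet and 5.25%, 4.05% and 6.54% in fraction 5/6, without overlap. Each of these 3 differences had exact permutation p = 0.1, the smallest possible. In the pellet the peaks of giant mRNAs were spread along the coding sequence: their median relative position was 0.51, 0.54 and 0.51 of its length, with 29.8% to 36.0% in the first of 3 equal parts and 34.8% to 36.5% in the last. The few peaks in fraction 5/6, on 1 or 2 mRNAs, had medians of 0.04, 0.05 and 0.75 in replicates 1, 2 and 3. How many peaks are called on an mRNA depends on its reads, so the peaks are not independent of the counts.

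The same contrast was available in other libraries. The low nuclease libraries of FMR1 KO brain, 3 of the pellet and 3 of fraction 5/6, were made with a milder digestion in 2.5 mM MgCl2, so that nuclease and buffer differ together. In them 9.31% of 15561 genes were called higher in the pellet and 10.7% lower. The class medians ran in the same order, from -0.67 for short mRNAs through -0.08 from 900 to under 1800 nt to 1.00 from 7200 to under 12000 nt and 1.02 for giants. Of the short mRNAs, 472 of 1042 were called lower there, which is 45.3%. Among the ribosomal protein genes 57 of 80 were called lower, among the mitochondrial ribosomal genes 46 of 78 and among the respiratory chain genes 56 of 78. Of the 1342 genes called higher with standard nuclease, 875 were called higher with low nuclease (65.2%) and 4 lower, and these 875 are 62.2% of the 1406 called higher with low nuclease among the genes tested in both. Of the 186 called lower, 70 were called lower again (37.6%), which is 4.29% of the 1631 called lower there. All 13 giant ubiquitin ligases were called higher, with a median 1.31 above their classes, as were all 7 PIKK kinases and Htt, with 1.02 above. Some lists had more calls there: VPS13 and BEACH proteins 11 higher of 12, spectrins, ankyrins and plakins 10 of 15, dynein heavy chains 10 of 14 and presynaptic genes 7 of 13. Others had fewer: ER machinery 2 higher and 2 lower of 27, protocadherins 6 higher of 45, solute carriers 8 higher and 4 lower of 219, extracellular matrix 9 higher of 32 and large adhesion receptors 11 higher of 27. The medians of these 5 were 0.88, 1.29, 0.37, 1.20 and 1.13.

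Enrichment in WT brain of the same age and preparation was set beside that of FMR1 KO, both with and without the fraction 5/6 library that has little Fmr1. That library also had 3.52% of its counts on the class from 7200 to under 12000 nt. The other WT fraction 5/6 libraries had 1.12% and 0.904%, and the WT pellet libraries 3.14% to 3.45%. With all 6 WT libraries, 0.0152% of 13128 genes were called higher in the pellet and 0.00762% lower, and the class medians ran from -0.19 for short mRNAs to 0.77 from 7200 to under 12000 nt and 0.73 for giants. Without that library, 7.67% of 13350 genes were called higher and 1.75% lower and the medians ran from -0.33 for short mRNAs to 1.43 from 7200 to under 12000 nt and 1.187 for giants. The interaction of genotype and fraction, fitted by edgeR over 12 libraries, passed the adjusted threshold for 0 of 13740 genes, with 766 having unadjusted p under 0.05. Fitted over the 11 others, it passed for 0 of 13973 genes and had 825 with unadjusted p under 0.05. With all 12 libraries the median of the interaction was -0.22 for short mRNAs, 0.69 from 7200 to under 12000 nt and 1.12 for giants. Over the 11 it was -0.10 for short mRNAs, -0.13 from 7200 to under 12000 nt and 0.12 for giants. No gene was thus shown to differ in enrichment between FMR1 KO and WT, which does not show that enrichment was alike.

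**Figure D5:**
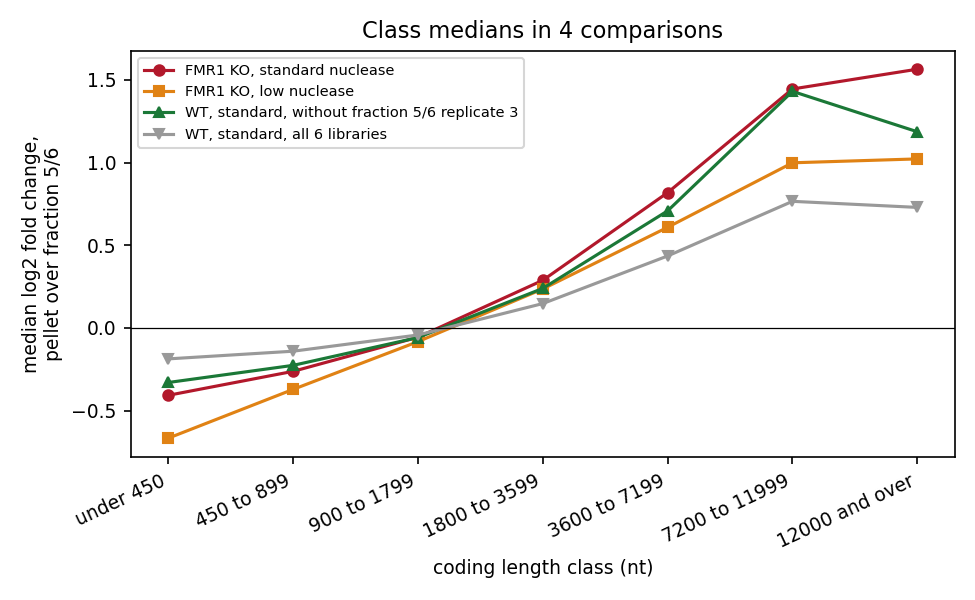
Median log2 fold change of pellet over fraction 5/6 (y axis) per coding length class (x axis, nt) in FMR1 KO with standard and with low nuclease and in WT with standard nuclease, with all 6 WT libraries and without fraction 5/6 replicate 3. All 4 lines rise with coding length up to 12000 nt, where FMR1 KO stands at 1.45 with standard and 1.00 with low nuclease and WT at 0.77 with all 6 libraries and 1.43 without that one, and cross 0 near 1800 nt.

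Markers of brain cell types were read beside these results. Of 13 neuron markers 1 was called higher and 0 lower, with Map2 and Tubb3 (0.29 ± 0.30, adjusted p = 0.552) the most read. Of 8 astrocyte and radial glia markers 3 were called higher, where 10.1% of all genes were, with a median of 0.57, or 0.45 above their own length classes, and a summed level of 1275 to 1539 CPM in the pellet and 1287 to 1512 CPM in fraction 5/6, where Glul was at -0.10 ± 0.20 (adjusted p = 0.763). Of 7 oligodendrocyte lineage markers 2 were called higher, with 111 to 169 and 139 to 155 CPM, and Mbp (-0.26 ± 0.37, adjusted p = 0.67) and Olig1 (-0.22 ± 0.21, adjusted p = 0.514) did not pass. Of 6 microglia markers 1 was called higher, P2ry12 (1.10 ± 0.22, adjusted p = 0.0238), with 119 to 123 and 99.9 to 109 CPM, while Cx3cr1 was at 0.17 ± 0.10 (adjusted p = 0.3). Endothelial markers summed to 6.08 to 13.6 CPM in the pellet and 2.64 to 5.69 CPM in fraction 5/6 over 4 genes with 0 calls, Cdh5 (1.38 ± 0.40, adjusted p = 0.075) and Kdr (0.84 ± 0.54, adjusted p = 0.335) among them. Erythroid markers summed to 4.85 to 7.98 and 5.43 to 9.37 CPM over 4 genes with 0 calls, including Hba-a1 (-0.29 ± 0.37, adjusted p = 0.63) and Alas2 (0.14 ± 0.40, adjusted p = 0.847). Both fractions came from whole brain, so the counts of a gene cannot be assigned to 1 cell type. The part of cell types in the fold changes was not tested.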

How the data were processed

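The deposited counts are whole numbers per gene. Per the study's methods, the authors trimmed reads with cutadapt 2.10, discarded reads of ribosomal and non-coding RNAs (Bowtie2 2.3.5), aligned to GRCm38 with STAR 2.7.8a, removed PCR duplicates with Picard and SAMtools 1.19.2 and counted with featureCounts 2.2.0. The deposited peak height values (a score of footprint coverage) were called by the authors per sample on Ensembl transcripts. Coordinates on these transcripts were read with GENCODE M21, in which 30 to 161 peaks per library have no entry and 7 to 19 pass the transcript's end.

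Genes of other biotypes (46 of 16614) and Cdk8 were left out. Counts were filtered by expression, scaled by TMM and tested with edgeR 4.0.16 (DESeq2 1.42.0 as an alternative) in R 4.3.3, with log values at a prior count of 2. The test was tried on simulated counts with 200 changed genes. Length classes use the longest annotated coding sequence, stop included. Shares were compared by exact permutation. Python 3.11.15, pandas 2.3.3 and matplotlib 3.10.9 were used.

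Genes were named by rule: Fmr1, the 6 highest and 6 lowest folds among called genes of at least 10 CPM without overlap, the 8 most read giant and short mRNAs, and the 2 most read of each list, of which 1 is not reported here. The members, lists and rules were chosen with earlier results of these data known. Replicates of a group differed far beyond sampling noise, with chi-square per degree of freedom of 127 to 401. Where cultures or animals were shared is not given, and the steps after pooling were shared within a group. The p-values thus measure the spread between these libraries, without that of the shared steps.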

Additional observations from a re-analysis of the deposited data

How the results depend on the processing

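With the main analysis, 1342 genes were called higher in the pellet and 186 lower. With library size alone in place of TMM these became 141 and 22, with a log2 threshold of 0.58 in the test 498 and 3, and with a replicate block 839 and 16. Same-numbered libraries deviated together weakly (correlations of 0.02, 0.14 and 0.24), so the numbers were not taken as pairs. With the 12 standard nuclease libraries fitted together both counts were 0 by edgeR, though 3731 of 13740 genes had unadjusted p under 0.05, and with the library labelled WT fraction 5/6 replicate 3 left out they were 1557 and 408. The number lower was 91 without a filter on low counts, 464 at 10 CPM or more, 318 with Cdk8 kept, 508 with DESeq2 and 1663 in the low nuclease libraries. Leaving out libraries gave 34 to 1291 higher and 0 to 287 lower, with the lowest numbers when replicate 3 or replicate 1 of both fractions was left out. Without replicate 1 of both fractions, where 0 were lower, 2031 genes in either direction had unadjusted p under 0.05. The cause of these differences was not tested.

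Medians of the short class and of the classes from 7200 nt up kept their sign in the alternatives run. With library size alone they were -0.79 for short mRNAs, 1.13 from 7200 nt to under 12000 nt and 1.18 for giants, and in the low nuclease libraries 1.00 and 1.02 for the last 2. The class from 7200 nt stood at 1.62 with the shortest annotated coding sequence, and its share difference at 1.93 percentage points with that sequence and 2.08 in the low nuclease libraries. For short mRNAs the share difference turned to 0.56 with the shortest coding sequence, and it ran from -0.95 to 0.32 when libraries were left out. For giants the peak share difference was 0.42 points with tall peaks only. The interaction passed for 1 gene with a replicate block and for 0 to 4 when libraries were left out. In the low nuclease libraries, Limd2 (-0.78), Elovl6 (0.24), Chd5 (0.56) and Zan (0.10), each called in 1 of the treatments, had the other sign. So did named genes called in neither: Cacna1d (-1.24), Ptprd (1.16), Hist1h2an (-1.37), Rpl22 (-0.26), Smim19 (0.10), Cx3cr1 (-0.19), Actb (-0.07), Tubb3 (-0.02), Atp5b (0.05), Fmr1 (0.04) and Srp72 (0.01). For the 122 named genes, the values with libraries left out kept their side of the threshold 807 times, uncalled values of either sign included, lost the call 281 times and gained one 10 times, and under the other settings this was 948, 229 and 28 times.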
